A study of Mus musculus with 13 samples.

Results

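A set of 226 genomic regions lay under a peak of all 8 chromatin immunoprecipitation libraries of this series at once, those for H3K27me3, RING1B, CBX8 and H3K27ac, each in both replicates. The members were found by merging the peaks of each list on chromosomes 1 to 19 and X, intersecting the 8 merged lists, and keeping every stretch of at least 1 bp. The 226 regions held 58721 bp, out of 290648 regions and 412891011 bp (0.0142%) covered by any list. The members were chosen by the positions of the peaks themselves, so their presence in the 8 lists is the rule and not a result, and their folds are given as a description with no test.

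The cells were olfactory basal cells of C57BL6 mice, sorted by c-KIT, a surface receptor of olfactory progenitors, and grown as adherent lines. The first replicates of H3K27me3 and RING1B came from line 1 (passage 12), per the labels. Both second replicates of these antibodies came from line 2, at passages 11 and 19, as did the first replicates of CBX8 (passage 19) and H3K27ac (passage 13). The second replicates of CBX8 and H3K27ac came from line 3 (passage 14). No treatment or genotype separated the groups, and 5 inputs of the series have no peak list here. By these labels a base in all 8 lists was listed in cells of 3 lines. Peak names in both H3K27ac lists and in that of CBX8 replicate 2 hold the word "combined", and if these were called on pooled libraries the 8 lists are not independent and this reading by line does not hold. By the labels, only line 2 was assayed for all 4 antibodies. Both marks on the same chromosome, on different alleles, in different cells or in different cultures cannot be told apart.

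Polycomb repressive complex 2 methylates lysine 27 of histone H3, and the resulting H3K27me3 is bound by chromodomain subunits such as CBX8 of Polycomb repressive complex 1 (PRC1), whose ubiquitin ligase subunit is RING1B. Acetylation of the same lysine, H3K27ac, marks active promoters and enhancers and cannot sit on the same histone tail as the methylation. A promoter that holds an active and a repressive mark together is commonly called bivalent, a term mostly used for H3K4me3 with H3K27me3.

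The regions were short and unevenly spread. Their width ran from 2 to 2981 bp with a median of 177.5 bp, and 25 were of 500 bp or more. Joined where they lay within 10 kb of each other, they made 136 loci. Chromosome 11 held 46 of the 226 regions, chromosome 6 held 37 and chromosome 5 held 25, while chromosomes 14 and X held 1 each. Of the 226, 104 (46.0%) lay within 2 kb of the start of a protein-coding gene, and the authors' annotation placed the RING1B replicate 1 peak over 132 of them in a promoter. The regions used 2.34% of the bases under both CBX8 libraries and 1.88% of those under both RING1B libraries, against 0.0988% for H3K27me3 and 0.0528% for H3K27ac.

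The fold of a peak over its control, as the authors gave it, split the regions into unlike groups. Each fold was turned into its percentile within its own list, since folds of broad histone peaks and narrow RING1B or CBX8 peaks are on different scales. A fold or percentile given for a region is that of the whole peak over it. Such a peak can run well past the region, so the fold is not a measure at the shared bases alone. In 46 regions at 17 loci the median of the 8 percentiles was below 5. Another 29 regions lay at 2 loci on chromosome 6 within 100 kb of the gene of 4.5S RNA, a small rodent RNA, and 6 lay in a cluster of transfer RNA genes on chromosome 1. The other 145 regions, at 116 loci, are the remaining regions below. These 4 groups were set after the values were seen and carry no test.

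**Figure D1:**
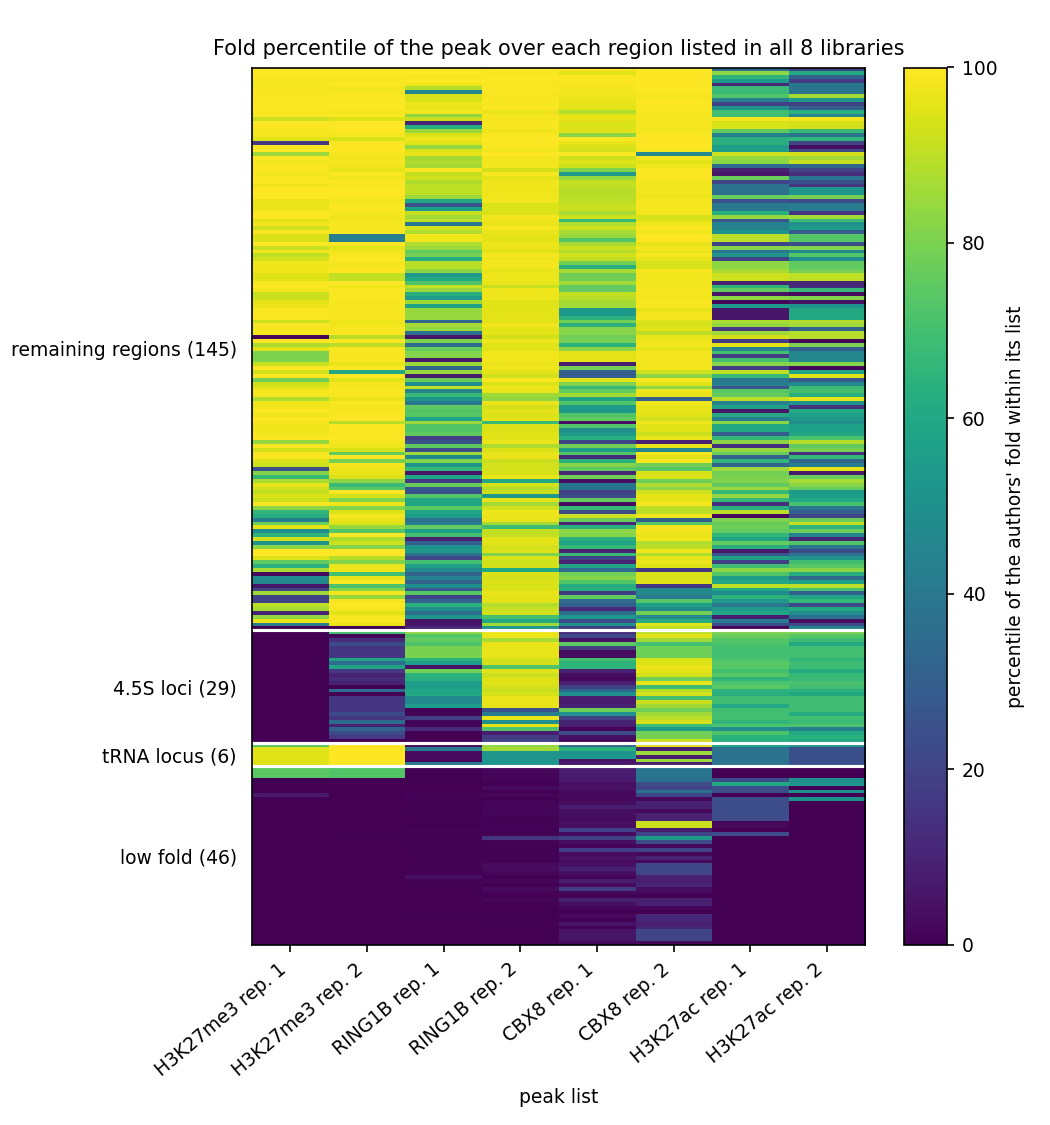
Percentile of the authors' fold within its own peak list (colour, 0 to 100) for each of the 226 regions (rows) in the 8 lists (columns), ordered by group and, within a group, by median percentile. The remaining regions are high for H3K27me3, RING1B replicate 2 and CBX8 replicate 2, while the 46 low-fold regions lie low in most lists.

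Sequences upstream of 3 starts at remaining regions and of 2 at low-fold regions are printed as examples, chosen by hand. Each is the 250 bases before a RefSeq transcript start, from the promoter table of RefSeq (assembly GRCm38.p6, which corresponds to mm10), written 5′ to 3′ along the gene, with each CpG in capitals. CpG dinucleotides are the site of DNA methylation, and Polycomb complexes are known to gather at unmethylated CpG islands. Foxl2 (chr9:98955357-98955606, plus strand) stands for a region on a start, and Hhex (chr19:37434591-37434840, plus strand) for a region that ended 85 bp before the Hhex start. Isl2 (chr9:55540899-55541148, plus strand) stands for a region at a start inside the gene, more than 2 kb past its outermost start. Gm40237 (chr4:118547156-118547405, plus strand) and Gm33862 (chr11:3136826-3137075, plus strand) stand for low-fold regions over non-coding RNA genes.

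Foxl2: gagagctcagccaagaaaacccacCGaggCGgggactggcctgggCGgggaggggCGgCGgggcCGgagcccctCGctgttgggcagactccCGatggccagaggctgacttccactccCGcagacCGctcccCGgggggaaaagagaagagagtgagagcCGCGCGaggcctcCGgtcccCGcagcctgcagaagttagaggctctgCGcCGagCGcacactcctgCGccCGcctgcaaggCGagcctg

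Hhex: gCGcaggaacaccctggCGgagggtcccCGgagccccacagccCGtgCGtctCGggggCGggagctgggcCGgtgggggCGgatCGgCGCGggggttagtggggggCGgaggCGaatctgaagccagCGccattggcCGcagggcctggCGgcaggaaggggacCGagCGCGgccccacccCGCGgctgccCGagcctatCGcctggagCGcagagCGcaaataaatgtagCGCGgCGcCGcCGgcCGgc

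Isl2: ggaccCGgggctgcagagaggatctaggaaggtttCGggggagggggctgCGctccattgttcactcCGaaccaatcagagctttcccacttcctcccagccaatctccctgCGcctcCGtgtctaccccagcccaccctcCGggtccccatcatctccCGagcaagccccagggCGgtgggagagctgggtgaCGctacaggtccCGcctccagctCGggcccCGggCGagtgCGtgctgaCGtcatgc

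Gm40237: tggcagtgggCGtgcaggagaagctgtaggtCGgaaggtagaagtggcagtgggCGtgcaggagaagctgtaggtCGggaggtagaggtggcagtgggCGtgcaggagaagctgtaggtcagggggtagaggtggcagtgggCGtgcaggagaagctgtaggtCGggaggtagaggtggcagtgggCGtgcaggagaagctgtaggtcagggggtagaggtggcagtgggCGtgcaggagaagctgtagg

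Gm33862: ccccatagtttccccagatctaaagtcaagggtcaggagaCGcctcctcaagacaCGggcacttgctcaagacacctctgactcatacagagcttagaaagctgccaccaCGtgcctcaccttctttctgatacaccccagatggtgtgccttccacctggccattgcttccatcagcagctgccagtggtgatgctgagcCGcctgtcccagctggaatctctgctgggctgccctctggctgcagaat

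The region of Foxl2 covered all 250 printed bases, which hold 22 CpG, and that of Isl2 covered all 250 with 16 CpG. The region at Hhex covered 166 of its 250 bases, which hold 32 CpG. The Gm33862 stretch, inside the Sfi1 gene and wholly covered by its region, held 4 CpG. The Gm40237 stretch, also wholly covered, held 9 CpG (observed over expected ratio 0.606, against 0.578 for Isl2) and repeats itself: its 300-base promoter matched itself at 96.1% of positions when shifted by 44 bases. A match of at least 90% at any shift from 10 to 150 bases occurred in 7 of 32851 promoters of the table (0.0213%) and in 1 of the 36 that overlap a common region.

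Over all genes with a region within 2 kb of the start and a promoter in the table, the observed over expected CpG ratio had a median of 0.804 (54 promoters), and 81.5% of them exceeded 0.6. The median of all 16018 protein-coding promoters was 0.598, with 49.8% above 0.6. PRC1 regions with H3K27me3 and without H3K27ac in either replicate had a median of 0.723 (303 promoters), and RING1B regions with H3K27ac but no CBX8 or H3K27me3 had 0.855 (952 promoters). Regions with H3K27me3 and H3K27ac in both replicates and no RING1B or CBX8 had 0.618 (51 promoters). The ratio of the common regions thus lay between those of the methylated PRC1 set and the acetylated RING1B set. Their median CpG count per promoter, 27.5, was above the 19 and 26 of these sets, and their median GC content was 66.3% against 62.0% and 65.3%.

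The 145 remaining regions lay mostly close to gene starts, under H3K27me3 peaks high in their lists. Of them, 92 (63.4%) lay within 2 kb of a start, 31 lay 2 to 10 kb away, 13 lay 10 to 50 kb away and 9 farther. Over all 226 regions the share was 46.0%. In the comparison sets, from which no such loci were removed, it was 38.2% of 2212 PRC1 regions with H3K27me3 alone, 76.1% of 1616 RING1B regions with H3K27ac alone and 18.1% of 364 regions with both marks and no RING1B or CBX8. The units differ: the comparison sets are whole intervals shared by both RING1B replicates, or by both H3K27me3 replicates in the last set. Their median widths were 443, 204.5 and 553 bp, against 158 bp for the 145 regions, which are intersections of 8 lists. The 145 regions had a median H3K27me3 fold of 4.04 in replicate 1 and 4.16 in replicate 2, at the 97.0th and 98.6th percentile of those lists. Over all 226 regions these percentiles were 87.6 and 96.3. The 145 were left after low-fold regions were set apart by these same folds, which by itself raises their percentiles. The PRC1 regions with H3K27me3 alone were higher, with 5.11 and 5.65 (99.5th and 99.7th percentile). In the 145 regions the median RING1B fold was 7.90 and 12.8, and the median CBX8 fold was 7.72 and 12.1. H3K27ac had median folds of 3.21 and 3.47, near the middle of its lists (63.2nd and 56.4th percentile). In the RING1B regions with H3K27ac alone, the H3K27ac stood at the 95th and 94th percentile.

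The acetylated stretch was mostly the smaller. In 96 of the 145 remaining regions the interval under both H3K27ac libraries lay inside the interval under both H3K27me3 libraries. In 46 the 2 intervals ran past each other on opposite sides, a border, and in 3 the methylated interval lay inside the acetylated one. The median width of the shared methylated interval was 2968 bp, and that of the shared acetylated interval was 724 bp. The low-fold regions were mixed, with the methylated interval inside the acetylated one in 24 of 46 and a median shared acetylated width of 4276.5 bp. The rest of the 46 were borders or had the acetylated interval inside. These 46 came from only 27 and 24 distinct peaks of the 2 H3K27me3 lists. The RING1B summit fell inside the common region in 55 of the 145 for replicate 1 and in 31 for replicate 2, and the CBX8 summit in 56 and 45.

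The replicates placed the same regions unevenly for RING1B and CBX8. RING1B replicate 2 had the higher percentile in 136 of the 145 regions and CBX8 replicate 2 in 132, with median differences of 20.2 and 15.0 percentile points. H3K27me3 replicate 2 was higher in 99, by a median of 0.847 points, and H3K27ac replicate 2 in 63. The lists with the higher percentiles are the longer ones, with 32879 against 7574 peaks for RING1B and 77130 against 9902 for CBX8, and the part of list length in this was not tested.

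Polycomb genes themselves were among the members. Within 2 kb of a start, 82 of 21116 protein-coding genes had a common region, a background of 0.388%, and 2 of 28 Polycomb genes did, Bmi1 and Cbx8. Bmi1 encodes a core PRC1 subunit that limits expression of the cell cycle inhibitor locus Cdkn2a. Its 349-bp region (chr2:18677659-18678007) lay 641 bp inside the gene. The whole peaks over it had H3K27me3 folds of 3.65 and 3.44, RING1B of 16.4 and 25.9, CBX8 of 23.7 and 23.2, and H3K27ac of 14.1 and 14.8. Every one of these peaks stood at the 92.2nd percentile of its list or above, the highest such minimum of the 226 regions (the next was 84.0). This rank is by fold alone, and the region was not among those left when every peak had to reach a −log10 q-value of 5. The region was a border: the acetylated peaks ran across the start and ended 989 and 998 bp into the gene, and the methylated peaks began 627 and 641 bp into it. A second region, 687 bp long and 11948 bp past the Bmi1 start in the neighbouring Gm46725, had H3K27ac of 4.18 and 2.48 and H3K27me3 of 4.74 and 2.98. At Cdkn2a no H3K27me3 or CBX8 peak lay within 2 kb of the start, RING1B was listed in replicate 2 alone (6.62), and H3K27ac was 17.8 and 13.2.

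A run of 7 regions lay upstream of Cbx8, which encodes the chromodomain subunit of PRC1 that was itself immunoprecipitated here. They lay from 702 to 15942 bp from its start. None lay inside Cbx2 or Cbx8. A single H3K27me3 peak of replicate 1, 15972 bp wide with a fold of 4.87, spanned the 7, while H3K27me3 replicate 2 covered them with peaks of 11236 bp (6.68) and 14361 bp (3.82). At the region 920 bp upstream of Cbx8 (chr11:119041833-119042044) RING1B was 6.63 and 28.3, CBX8 18.9 and 23.6, and H3K27ac 9.78 and 10.3. At the region 14966 bp upstream (chr11:119055879-119056187) RING1B was 11.8 and 21.7, CBX8 15.3 and 17.7, and H3K27ac 5.56 and 7.15. Cbx2, the next gene, had peaks of 7 lists at its start and lacked H3K27me3 replicate 1.

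**Figure D2:**
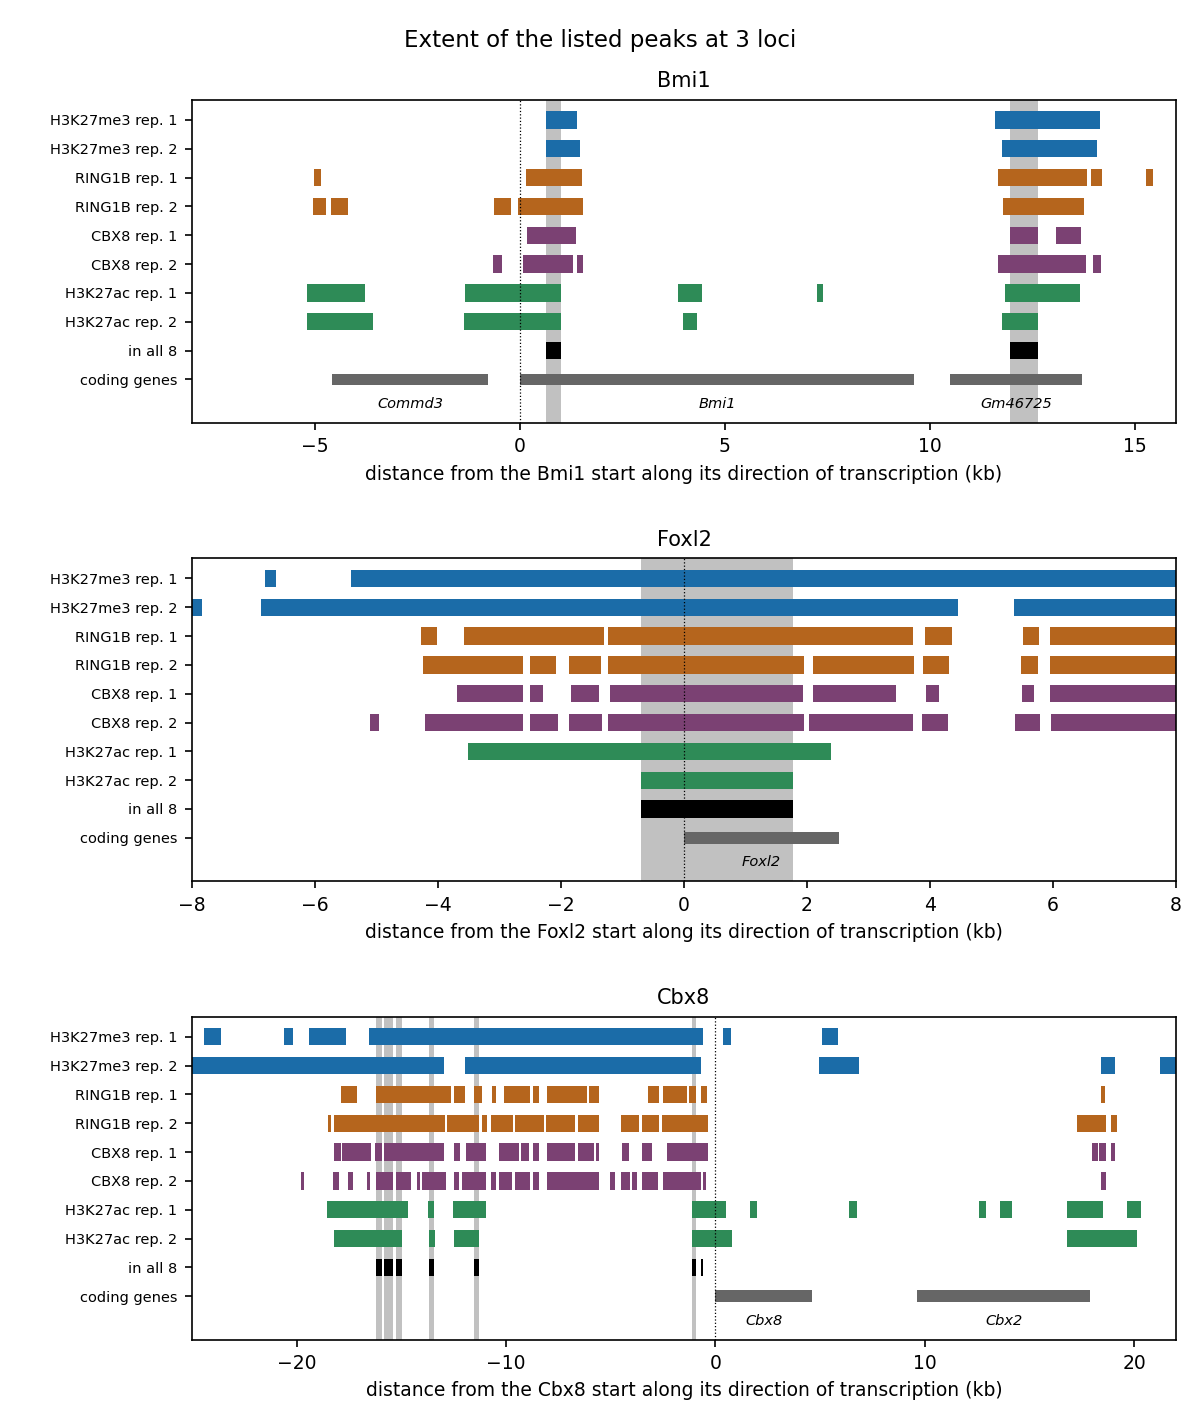
Extent of the listed peaks (bars, 1 row per library) around Bmi1, Foxl2 and Cbx8, against distance in kb from the gene start along its direction of transcription, with regions in all 8 lists in black and shaded and coding genes in grey. At Bmi1 the ends of the H3K27ac and H3K27me3 peaks overlap over 349 bp, at Foxl2 the acetylated peaks lie inside wider methylated ones, and upstream of Cbx8 the regions fall where short acetylated peaks meet a long methylated one.

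After Bmi1, the genes with the highest minimum percentile at a start were Atp7b and Alg11, which share a region of 123 bp. Atp7b encodes a copper transporter and Alg11 a mannosyltransferase of protein glycosylation, and their region had RING1B of 10.9 and 15.3, CBX8 of 15.8 and 17.3, H3K27ac of 5.05 and 5.94 and H3K27me3 of 3.63 and 3.58. Dock3, which encodes a neuronal guanine nucleotide exchange factor, had H3K27ac of 5.30 and 4.99 and H3K27me3 of 4.18 and 4.30.

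Several transcription factor genes of development had regions at their starts. Foxl2, a forkhead factor of ovary and eyelid development, held the second widest region of the set, 2474 bp across its start (chr9:98954907-98957380). The whole peaks over it had H3K27me3 folds of 5.55 and 6.43, RING1B of 63.7 and 32.2, CBX8 of 21.8 and 56.6, and H3K27ac of 5.32 and 3.68. The region is the whole H3K27ac peak of replicate 2, which ran from position -700 to 1773 relative to the start, within a replicate 1 peak of 5889 bp. Of 47 forkhead, T-box, Gata and Sox genes, 4 had a region at the start, Foxl2, Foxa2, Foxc2 and Tbx2. Gata2 of this list held 2 regions inside the gene, more than 2 kb from its outermost start and so not counted. Foxa2, an endoderm and floor plate factor, had 2 regions within a single H3K27me3 peak of 17584 bp in replicate 1 (5.95) and 6700 bp in replicate 2 (3.86), and its stronger one had RING1B of 17.5 and 12.8 and H3K27ac of 4.25 and 2.93. Tbx2, a T-box repressor, had CBX8 of 45.5 and 69.2 and H3K27ac of 2.37 and 2.96, below the list medians of 2.86 and 3.23. Foxc2, a mesoderm and vessel factor, had H3K27ac of 3.41 in replicate 1 and 11.4 in replicate 2, which come from lines 2 and 3.

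Prdm8, a zinc finger factor of neural cells, had a region 1315 bp from its start (chr5:98168518-98169080) with RING1B of 18.6 and 23.2, CBX8 of 29.9 and 23.4, and H3K27ac of 3.76 and 7.21, at a border. Hhex, a homeobox factor of endoderm and blood, had 2 regions of 416 bp each, with H3K27ac of 4.02 and 4.13 inside the methylated peaks (4.35 and 4.83). Prdm1, a transcriptional repressor needed to form plasma cells and germ cells, had RING1B of 30.8 and 15.3 and H3K27ac of 3.53 and 3.84. Hox genes gave 1 member of 39 (2.56%, against 0.388% of all genes), Hoxc6, with H3K27me3 of 5.71 and 6.75 and H3K27ac of 3.01 and 2.63. Of 64 other homeobox and Pax genes 1 (1.56%) was a member, Msx1 (H3K27me3 5.06 and 5.60, H3K27ac 2.47 and 2.65). Isl2 and Lhx9 of this list also overlapped a region, but more than 2 kb from the outermost start, the only start counted per gene. The Isl2 region lay at an inner start, as printed above. A region 20158 bp from the start of Pax2, a factor of kidney and eye, had H3K27ac of 6.50 and 5.53 with H3K27me3 of 4.15 and 7.10.

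Signalling and cell cycle lists held 1 or 2 members each, against 0.388% of all genes. Of 45 BMP, TGF-beta and Smad genes, 2 (4.44%) were members, the BMP antagonist Grem1 (H3K27ac 5.20 and 3.21) and the ligand Bmp6 (H3K27ac 2.69 and 2.61). Of 56 Wnt, FGF and Hedgehog genes, Fgf5 was a member (1.79%), with CBX8 of 15.1 and 21.3 and H3K27ac of 2.70 and 2.97. Of 27 cell cycle genes, Ccnd2, which encodes cyclin D2, was a member (3.70%). Its region lay 1652 bp from the start (chr6:127153840-127154143), with RING1B of 24.4 and 51.2, H3K27ac of 8.90 and 10.3, and CBX8 of 52.4 in replicate 1 but 4.78 in replicate 2. No member was among 29 olfactory neuron lineage genes, 20 housekeeping genes or 19 imprinted genes with a known start. The 7 lists of cell type markers held none either. At a background of 0.388% lists of this size would hold less than 1 member. Zfp423, of the lineage list, had a region inside the gene, 2786 bp from its start and so outside the 2 kb window. Axin2, of the Wnt, FGF and Hedgehog list, had 2 regions inside the gene that also fell outside the window. The one 4478 bp from its start had H3K27ac of 8.84 and 8.60. The lists with the largest shares, forkhead, T-box, Gata and Sox genes at 8.51% and Polycomb genes at 7.14%, rest on 4 and 2 genes, and no list was tested.

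**Figure D3:**
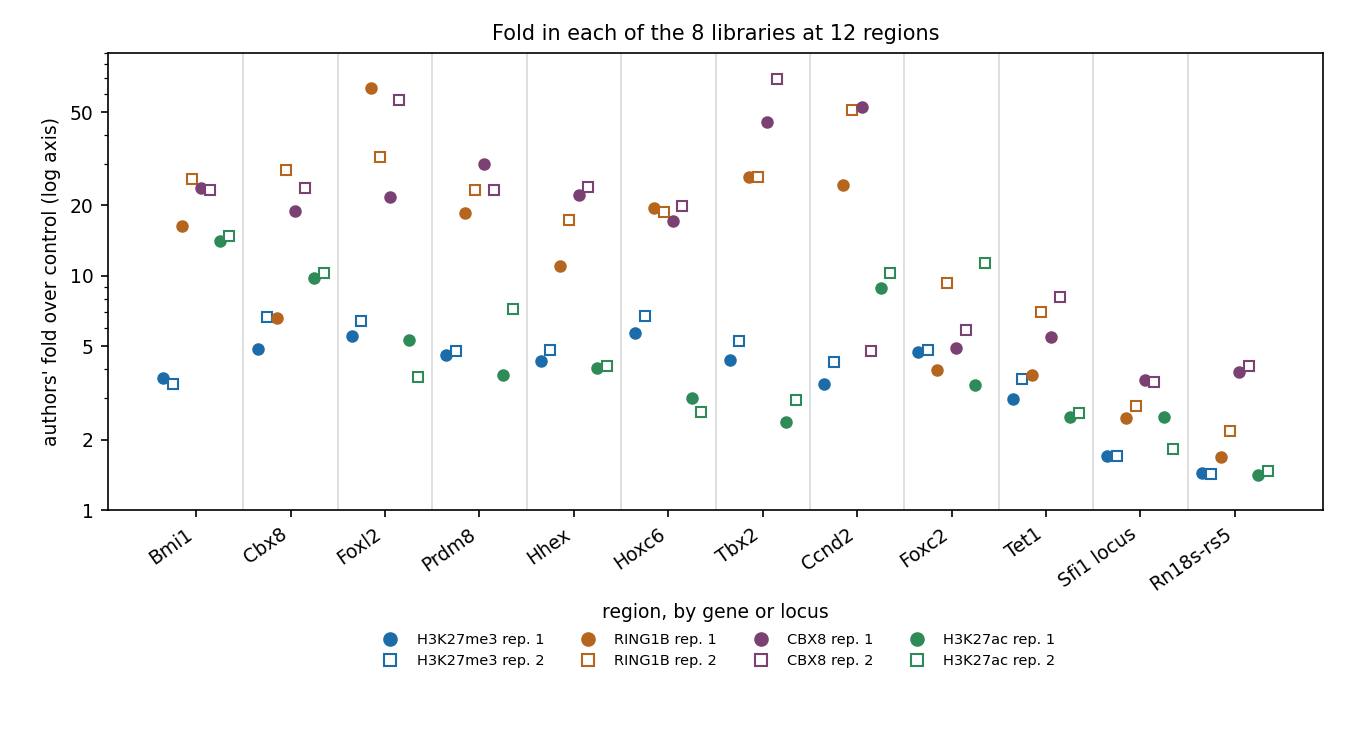
The authors' fold over control (log axis) of the whole peak over each of 12 regions, in each of the 8 libraries (filled circles for replicate 1, open squares for replicate 2, colour for antibody). Bmi1, Cbx8 and Ccnd2 are high for H3K27ac in both replicates, Tbx2 is below the list median in both, and at the regions of the Sfi1 and Rn18s-rs5 loci all 8 folds are between 1.40 and 4.13.

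Some genes of the culture's own lineage had peaks of several lists near the start without a base there shared by all 8. Kit, the receptor used for the sort, had peaks of 6 lists within 2 kb of its start, and lacked CBX8 replicate 1 and H3K27ac replicate 1. Neurog1, a proneural factor of the lineage, also had 6 lists and lacked both H3K27ac replicates, and Pax6 had 7, lacking H3K27ac replicate 1. Sox2 had RING1B and H3K27ac in both replicates and neither of the other 2 antibodies. Mycn had all 8 lists within 2 kb and no base common to them. In all, 228 of 21116 genes (1.08%) had a peak of each of the 8 lists within 2 kb. Of these, 146 had no common region, and in 58 of the 146 no base at all lay under both marks in both replicates.

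Among PRC1 regions the share with a member was small. Of 2913 regions under both RING1B and both CBX8 libraries, 205 (7.04%) held a common region. Long peaks gave several: the 145 remaining regions came from 118 distinct peaks of each H3K27me3 list and from 130 of RING1B replicate 1. Pde8a and Pde3b, which encode phosphodiesterases that break down cyclic nucleotides, had 4 regions each within 2 kb of their starts, and Nptx1, which encodes a neuronal pentraxin, had 3. Regions of 1 such run share their wide peaks and are not independent of each other.

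Some regions with high folds lay more than 2 kb from a coding start. Inside Npas3, which encodes a neural transcription factor, an 887-bp region (chr12:53252394-53253280, 4368 bp from the start used) had RING1B of 12.6 and 19.6 and H3K27ac of 5.24 and 8.96. A region of 351 bp inside Shox2, a homeobox gene of limb and heart, had CBX8 of 52.4 and 60.6 and H3K27ac of 3.22 and 3.99. Inside Nkx1-1, also a homeobox gene, a region of 925 bp lay 2683 bp from the start, with CBX8 of 60.1 and 75.6 and H3K27ac of 2.63 and 2.59. Near Raet1e, which encodes a ligand of the immune receptor NKG2D, a region of 200 bp had CBX8 of 65.1 and 54.2, RING1B of 33.0 and 60.8 and H3K27ac of 3.27 and 2.78. The only region on chromosome X, 27 bp inside the pseudogene Erdr1, had low folds by comparison (H3K27me3 2.41 and 2.19, H3K27ac 2.19 and 3.05). The region farthest from a coding start, 357574 bp from Zwint (chr10:72297180-72297272), had H3K27me3 of 4.41 and 4.47 and H3K27ac of 4.07 and 3.82. It was 1 of 8 regions left when every peak had to reach a −log10 q-value of 5. The others of those 8 lay at Prdm8, Zfp423, Foxl2, Raet1e, Prdm1 and, in 2 regions, Cbx8. At a −log10 q-value of 3, 65 regions and 20 genes were left, 41 of the regions from the remaining group, 14 low-fold, 4 at the 4.5S loci and 6 at the tRNA locus.

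The low-fold regions were peaks over a high control. H3K27me3 had median folds of 1.71 and 1.67 there and H3K27ac had 1.89 and 1.79, while RING1B had 2.1 and 2.51 and CBX8 had 3.63 and 3.94. For 3 lists the control level could be recovered from the fold and p-value of each peak. In RING1B replicate 2 it had a median of 55.3 overlapping fragments at the summit over the low-fold regions, against 2.68 over the whole list, and only 0.280% of the list's peaks reached that value. In CBX8 replicate 1 the medians were 25.8 and 1.04 (1.30% of peaks), and in CBX8 replicate 2 they were 36.7 and 1.72 (0.123%). The lowest control level of a low-fold region, 21.3, 7.71 and 14.9 in these lists, was above the highest of the remaining regions, 6.87, 4.01 and 9.65. Since the fold has the control in its denominator, the low fold and the high control are not separate evidence.

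**Figure D4:**
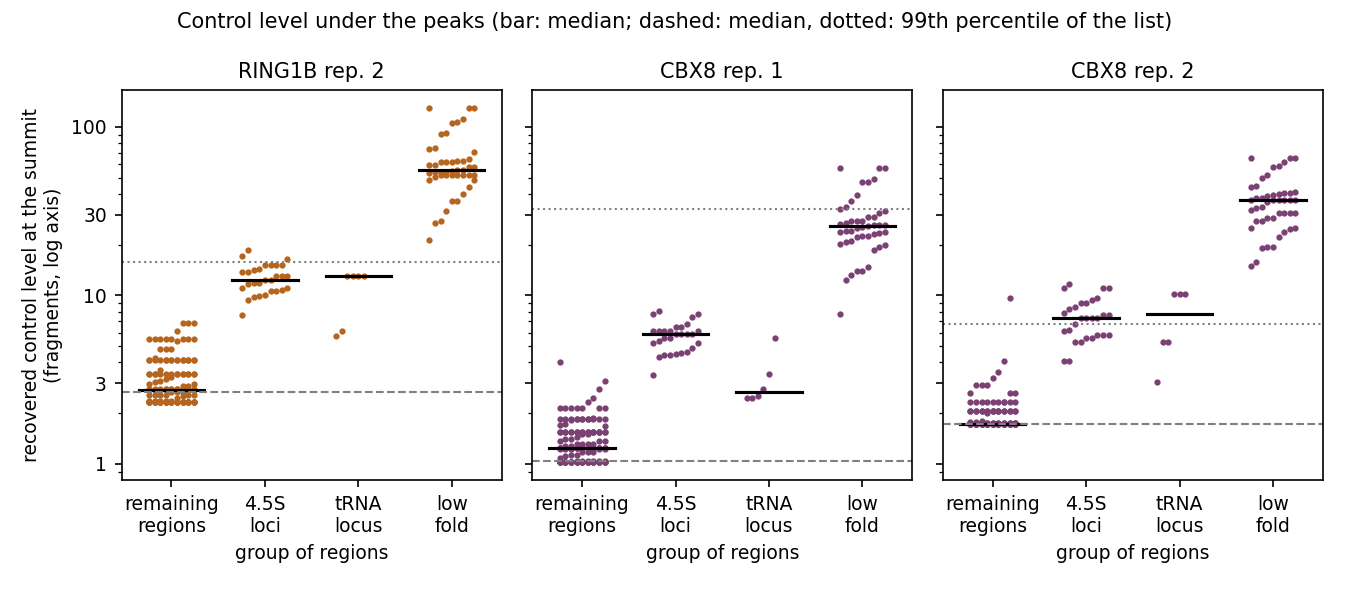
Control level at the peak summit (overlapping fragments, log axis), recovered for 3 lists, for the regions of each group (points, with the median as a bar), beside the median (dashed) and 99th percentile (dotted) of the whole list. The low-fold regions lie above all remaining regions in each list, and the medians of the 4.5S loci lie between those of the other 2.

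None of the 46 low-fold regions lay within 2 kb of a coding start. On chromosome 11, 24 of them lay in a pair of loci (chr11:3125951-3168866 and chr11:3192286-3193622). Of these, 21 overlapped Sfi1, a centrosome gene, and 3 the transcribed pseudogene Pisd-ps1. The region at Sfi1 that spans the Gm33862 start, 1054 bp wide, had H3K27me3 of 1.71 and 1.69, RING1B of 2.48 and 2.77, CBX8 of 3.61 and 3.53, and H3K27ac of 2.50 and 1.83. The widest region of the whole set, 2981 bp (chr17:39844367-39847347), overlapped Rn18s-rs5, a pseudogene related to 18S ribosomal RNA, with H3K27ac of 1.40 and 1.47 and a control level of 129.9 in RING1B replicate 2. The other low-fold loci included Pisd-ps2, a stretch inside Tmem267, one inside Cdk8, and the Gm40237 repeat printed above. Copy number and mappability at these loci were not tested, and no repeat annotation was used here.

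The 29 regions near the 4.5S RNA gene had low H3K27me3 with higher RING1B and H3K27ac. RING1B had median folds of 6.26 and 10.4 there and H3K27ac 3.55 and 4.25, while H3K27me3 had 2.14 and 2.50, with all 29 below the 5th percentile of H3K27me3 replicate 1 but 4 of 29 below that of replicate 2, where the median percentile was 15.9. The control level was raised less, with medians of 12.4, 5.86 and 7.31 in the 3 lists. The loci span 33004 bp (14 regions) and 33409 bp (15 regions) at chr6:47651765-47684768 and chr6:47739671-47773079, and the RefSeq gene Rn4.5s (chr6:47654921-47655094) lies in the first, with no common region inside it. RING1B replicate 2 had 8 peaks of at least 1000 bp in each locus. In the first their starts were 4296 to 4388 bp apart (median 4311 bp), and in the second 4282 to 5349 bp (median 4348 bp). The H3K27ac replicate 2 peaks of that width were 3432 to 4406 bp apart in the first locus (median 4306 bp) and 4158 to 8667 bp in the second (median 4637.5 bp). The step of 8667 bp spans a peak of fold 5.76 that fell short of 1000 bp, so it depends on the threshold. Replicate 1 varied more than replicate 2 in the first locus, from 3849 to 4722 bp for RING1B and from 2660 to 5121 bp for H3K27ac. A border between methylated and acetylated intervals accounted for 23 of the 29 regions. Of the 29, 7 lay within 2 kb of the start of 4 predicted coding genes, Gm36327, Gm40364, Gm40367 and Gm40369. The threshold of 1000 bp was chosen after the peaks were seen.

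**Figure D5:**
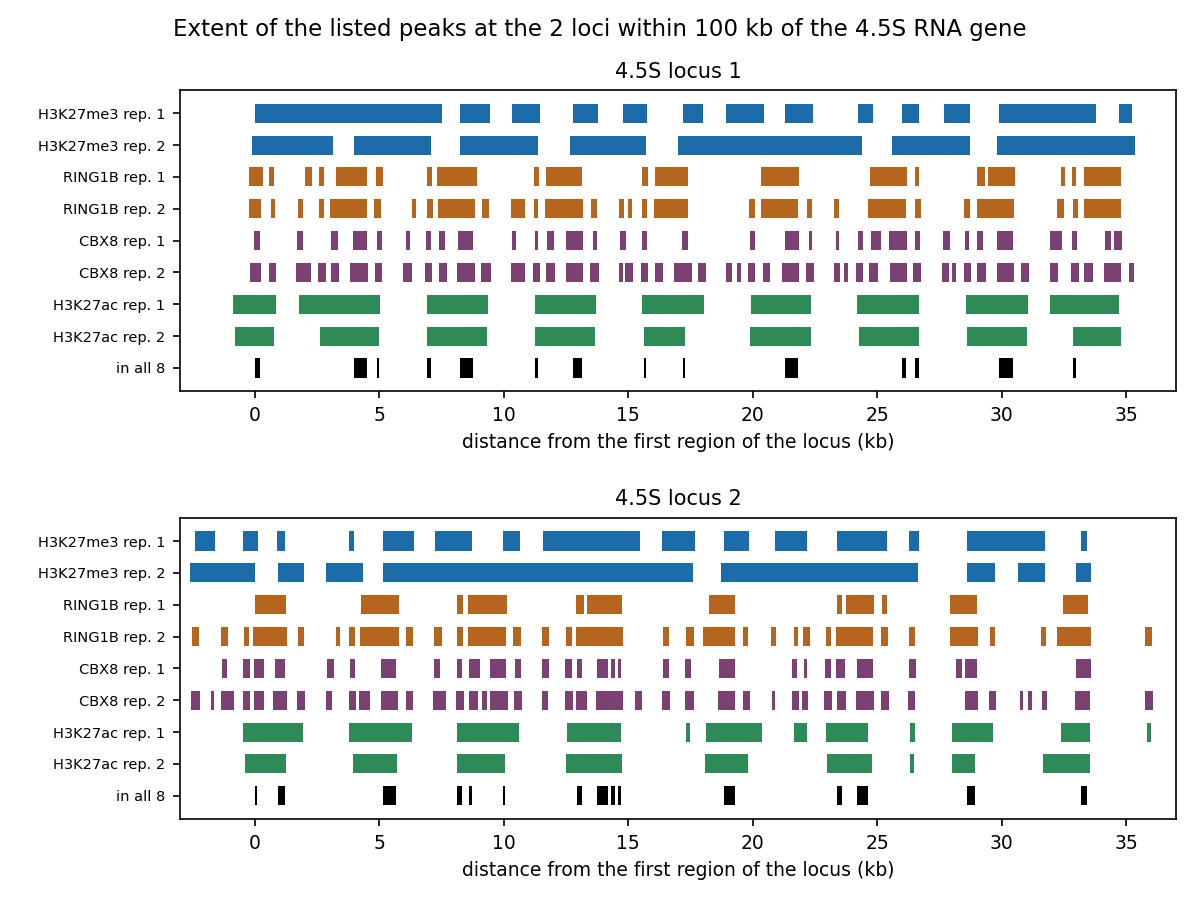
Extent of the listed peaks (bars, 1 row per library) at the 2 loci within 100 kb of the 4.5S RNA gene, against distance in kb from the first region of each locus, with regions in all 8 lists in black. RING1B and H3K27ac peaks recur, with median spacing of 4311 and 4306 bp for replicate 2 in the first locus and wider, less even steps in the second (4348 and 4637.5 bp).

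At the tRNA cluster (chr1:171063970-171072763) 6 regions of 24 to 173 bp lay within 230 bp of a tRNA gene, in and beside Fcgr3, an immunoglobulin receptor gene. The locus holds 7 tRNA genes in RefSeq. H3K27me3 had median folds of 3.82 and 5.50, the latter from a peak of 23548 bp, and all 6 regions were acetylated stretches inside methylated ones. RING1B had medians of 3.42 and 4.70, against list medians of 5.94 and 4.54, and reached 5.46 and 7.10 at the first region. There H3K27ac was 2.67 and 2.65. The control levels had medians of 13.1, 2.66 and 7.75.

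At the edge of the rule, the 5 narrowest regions were 2 bp at Tet1, 5 bp at Pde3b, 7 and 8 bp at Pde8a and 10 bp at a site 120847 bp from Rab11fip4. The 2 bp near Tet1, which encodes an enzyme that oxidises methylcytosine, had H3K27ac of 2.49 and 2.61. Just outside, a stretch of chromosome 7 at 63758060 to 63758153 bp, nearest to E030018B13Rik, lay in 7 lists and 2 bp from a peak of CBX8 replicate 2. The number of members depended on which lists were required. Without H3K27ac replicate 1 there were 470 regions and 193 genes, without RING1B replicate 1 408 and 115, without H3K27ac replicate 2 359 and 129, and without CBX8 replicate 1 350 and 142. Without RING1B replicate 2 there were still 226. The 4 libraries of line 2 alone, 1 per antibody, gave 924 regions and 290 genes. These genes hold all 82 by construction, since the 4 lists are part of the 8.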

How the data were processed

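Peak lists of 8 libraries were used. The submitters' processing notes name MACS2 2.1.1.20160309, BWA 0.7.12, bcl2fastq 2.17, Trim Galore 0.4.3 and build mm10; the sources used here do not give options or controls, nor the meaning of "combined" in peak names of both H3K27ac lists and CBX8 replicate 2. The deposited fold (a ratio over the control) was described by its percentile within its list. The deposited −log10 p-value served with the fold to recover the control level, and the −log10 q-value set the stricter thresholds. The deposited score was not used, and the annotation columns were used for strand and place. Read depth is unknown. Replicates are separate cultures per the labels.

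Intersections were made in Python 3 with a minimum overlap of 1 bp and checked on simulated intervals. Gene starts came from RefSeq (GRCm38.p6), with strand known for 21116 of 21631 coding genes. Only 1 start per gene was used, the outermost 5′ end, so regions at inner starts do not count as near a start. Where several peaks covered a region, the highest fold was taken. Control and pileup were solved from the fold, taken as pileup + 1 over control + 1, and the Poisson tail, accepted for a whole pileup within 0.001 on the −log10 scale; this succeeded for 99.9% of peaks of RING1B replicate 2 and of both CBX8 lists, and not for RING1B replicate 1 or the broad lists. Named regions are the 20 with the highest lowest percentile, the 10 widest, the 10 farthest from a start, the 5 narrowest, loci with 4 or more regions, genes with 3 or more, members of 10 gene lists and 10 genes by name; others named were chosen after their values were seen, and some results under this rule are not reported here. The members, groups and lists were chosen with earlier results of these data known. Alternatives were stricter q-values, a minimum width of 100 bp, joining of peaks within 500 bp, windows of 1 and 5 kb, the peak with the largest overlap, each library left out, line 2 alone and, added after the data were seen, leaving out the low-fold, 4.5S and tRNA loci.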

Additional observations from a re-analysis of the deposited data

Results flagged for a closer look

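Chromosome Y was outside the rule. The 8 lists held 554 peaks there, and 1 region was common to all 8: 113 bp at chrY:90769180-90769292. H3K27me3 had folds of 2.25 and 2.08 there, RING1B had 1.99 and 3.02, CBX8 had 3.29 and 3.45, and H3K27ac had 1.93 and 3.85. Except for H3K27ac replicate 2, at the 63.7th percentile, each of these peaks lay below the 5th percentile of its list, as in the low-fold group. There is no peak list of an input to set beside it.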

How the results depend on the processing

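With a −log10 q-value of at least 3, 65 regions at 20 genes were left, with a median width of 241 bp and a median fold percentile of 84.3. With at least 5, these values were 8, 5, 212 bp and 95.1, the share within 2 kb was 62.5% and the median CpG ratio 0.708. The main values were 226 regions, 82 genes, 177.5 bp, 78.4, 46.0% and 0.804. A minimum of 100 bp gave a median width of 226.5 bp, and joining peaks within 500 bp gave 231 bp. The share within the window was 37.6% for 1 kb and 61.5% for 5 kb. Line 2 alone gave 924 regions, 290 genes, a border in 29.5% (main 35.8%) and a percentile of 68.5. Without the low-fold, 4.5S and tRNA loci there were 145 regions, 63.4% of them within 2 kb, with a percentile of 88.7. Leaving out 1 library at a time gave 226 to 470 regions, 82 to 193 genes, 35.5 to 54.9% within 2 kb, a border in 28.8 to 38.3%, a percentile of 60.1 to 91.8 and a median width of 173 to 203 bp. The numbers over 1.5 times the main one came from leaving out RING1B replicate 1 (408), CBX8 replicate 1 (350), H3K27ac replicate 1 (470) or H3K27ac replicate 2 (359). The cause of these changes was not tested beyond what the construction of each alternative fixes, namely fewer peaks or fewer lists. The peak with the largest overlap gave the main percentile. No paired analysis was possible because no test was made and the replicate numbers do not name the same line throughout (number 1 is line 1 for H3K27me3 and RING1B, and line 2 for CBX8 and H3K27ac). Depth is unknown, so a base outside a list may be undetected rather than unmarked.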
